A study of Homo sapiens with 8 samples.

Results

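The suppressor of cytokine signalling (SOCS) family was followed through 4 stable lines of LNCaP, a human prostate adenocarcinoma line. Its 8 members, CISH and SOCS1 to SOCS7, were taken by gene symbol from a table of 27140 genes, and all 8 had enough counts to be tested. Each line was measured by RNA sequencing in 2 libraries. All lines were made by lentiviral infection and puromycin selection at 1 µg/ml, with a control hairpin (shControl) plus vector, called the control, or a METTL3 hairpin (shMETTL3) plus vector, called the knockdown. In the remaining lines shMETTL3 was combined with METTL3 that resists it, either wild-type (the wild-type rescue) or a catalytically dead mutant (the mutant rescue). METTL3 is the enzyme that places N6-methyladenosine (m6A) on messenger RNA. The labels do not give the hairpin sequences, the promoters that drive the rescue constructs, whether a line is 1 clone, or whether the 2 libraries of a line are separate cultures, so p-values measure only the spread between these libraries, which may be technical.

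SOCS proteins are brakes on cytokine receptors. A cytokine activates JAK kinases at its receptor, these phosphorylate STAT transcription factors, and STATs switch on CISH, SOCS1, SOCS2 and SOCS3, whose products bind the receptor or the JAK through an SH2 domain and end the signal. A shared C-terminal motif, the SOCS box, recruits elongin B, elongin C, CUL5 and RNF7 into a ubiquitin ligase that marks the bound protein for degradation. SOCS4, SOCS5, SOCS6 and SOCS7 are long proteins that act mainly on growth factor and insulin receptors and are less dependent on cytokines. Messages of this family are known m6A targets: in mouse T cells Socs1, Socs3 and Cish are stabilised when Mettl3 is lost, and SOCS2 message is stabilised on METTL3 loss in liver cancer cells.

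METTL3 checked the labels. It stood at 68.4 and 68.5 CPM (a gene's count relative to the scaled total of its library) in the control libraries, 26.2 and 31.3 in the knockdown, 309 and 325 with wild-type METTL3 added and 333 and 334 with the mutant. The knockdown thus kept 42.0% of the control level, while the rescues stood at 463% and 488% of it, and native and introduced METTL3 messages are counted together. The 8 libraries held 15200343 to 17893241 counts. All 9 LNCaP markers, KLK3 among them, were above 1 CPM, and summed to 9434 to 9482 CPM in the control and 7592 to 7893 in the lines with the METTL3 hairpin. Of the leukocyte markers, PTPRC and CD3E had at most 1 count in any library. That list summed to 24.4 to 27.4 CPM in the control against 16.6 to 19.3 in the knockdown and wild-type rescue and 21.8 to 22.7 in the mutant rescue, nearly all from CD68 (241 to 415 counts). In bulk samples fewer cells of a type and less RNA per cell cannot be told apart.

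SOCS messages ranged over a wide span in this line. Divided by gene length, SOCS4, at a mean of 10.5 CPM per kilobase over the 8 libraries, and SOCS7, at 10.3, stood above 57.3% and 56.8% of the genes tested and overlapped in range. SOCS2 (3.02), CISH (2.97), SOCS5 (2.96) and SOCS6 (2.63) formed a middle set whose library ranges overlapped from each to the next. SOCS1 stood at 1.34 CPM per kilobase and SOCS3, the brake on the interleukin-6 receptor, at 0.174, below all but 2.54% of the genes tested. The order changed between lines. SOCS4 stood above SOCS7 in the control and both rescues, but SOCS7 was first in the knockdown, at 10.98 against 9.81 CPM per kilobase with no overlap of the libraries. Within the middle set, in the control SOCS2 had rank 3 of 8 and CISH rank 6, and in the knockdown CISH had rank 3 and SOCS2 rank 6.

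**Figure D1:**
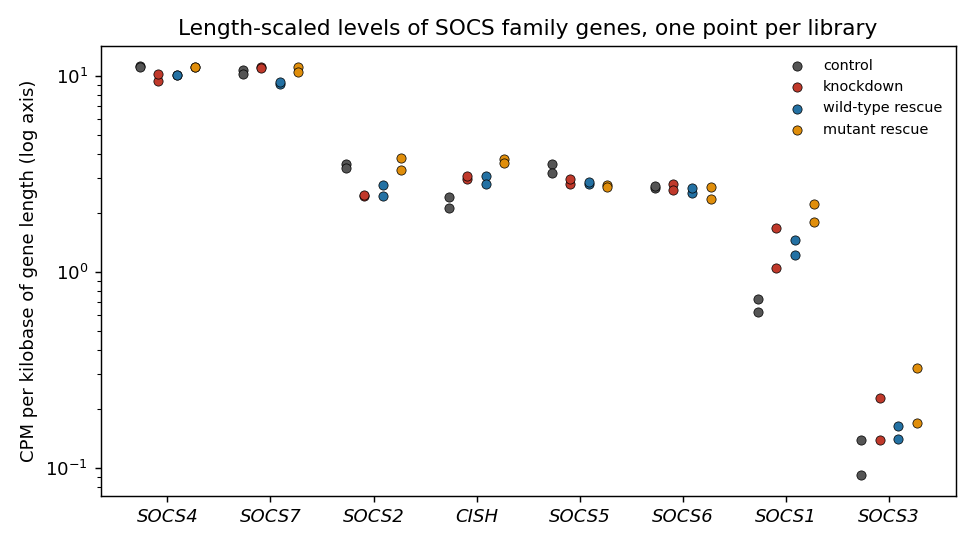
Levels of the 8 SOCS family genes in CPM per kilobase of gene length on a log axis, 1 point per library, coloured by line and ordered by the mean over 8 libraries. SOCS4 and SOCS7 sit near 10, the middle 4 genes between 2 and 4, SOCS1 between 0.623 and 2.23 and SOCS3 between 0.0921 and 0.322.

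METTL3 methylates the adenosine of short motifs, of which GGACT is a common form, often near the stop codon. The longest coding transcript of each gene (GENCODE 29, GRCh38) was searched for it, since m6A itself was not measured in these libraries. Over 13227 tested coding genes the median was 0.935 GGACT per kilobase, and 92.4% held at least 1. CISH had 5 in 2167 bases, a higher density (2.31 per kilobase) than 95.1% of these genes, and SOCS3 had 5 (1.83, above 88.3%). SOCS2 had 6 (1.61, above 82.7%), SOCS5 had 7 (1.47, above 78.2%) and SOCS7 had 10 (1.27, above 69.7%). SOCS1 had 2 (1.12, above 61.7%), SOCS6 had 6 (1.03, above 55.9%) and SOCS4 had 4 in 6779 bases (0.590, above 26.1%). For the 4 members whose levels differed most clearly between lines, the copy nearest the stop codon is printed with 12 bases on each side and GGACT in capitals.
CISH: ggtggccgacgtGGACTgcctgccactgc
SOCS1: acggatccgcgcGGACTtggtgctccgtg
SOCS2: gtggttctccagGGACTcaggcctggcgg
SOCS7: ctgggcatcttaGGACTggaggggctcct
The CISH copy is coding and begins 63 bases before the last base of the stop codon. That of SOCS1 begins 814 bases before that base, and its place relative to the start codon was not examined. Those of SOCS2 and SOCS7 begin 18 and 226 bases after the last base of the stop codon.

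Depletion of METTL3 moved the family in both directions. On knockdown 2 members rose (CISH and SOCS1), 3 fell (SOCS2, SOCS4 and SOCS5) and 3 did not pass the test (SOCS3, SOCS6 and SOCS7). By edgeR 22.9% of all genes tested rose, 25.1% fell and 48.0% were called in either direction, so 5 of 8 is near the background. The median log2 fold change was 0.04 over the members and -0.01 over all genes tested.

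Among the cytokine-induced members only SOCS2, which restrains growth hormone signalling, fell. It was at 13.9 and 13.3 CPM in the control libraries and at 9.53 and 9.66 in the knockdown. Both knockdown libraries lay below both control libraries, and the means were 13.6 ± 0.430 and 9.60 ± 0.0876 CPM (SD, n = 2). SOCS2 fell by 0.50 on the log2 scale (SE 0.11, edgeR adjusted p = 5.65e-05), a call kept in all 14 alternative fits (adjusted p at most 0.00847). SOCS2-AS1, which shares 277 exon bases with SOCS2 on the other strand, had 4 to 16 counts per library.

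CISH, which competes for STAT5 docking sites on receptors, was at 5.43 and 4.79 CPM in the control libraries and at 6.71 and 6.99 in the knockdown. The lines did not overlap, and CISH rose by 0.42 (log2 scale, SE 0.15, edgeR adjusted p = 0.0153). That call ended with DESeq2 (adjusted p = 0.110), without control replicate 2 (0.149) and without knockdown replicate 2 (0.0731), over a range of 0.00688 to 0.149. CISH shares 218 exon bases with MAPKAPK3 on the other strand, and the strand setting of the counting is not given in the sources used here. MAPKAPK3 stood at 131 CPM in the knockdown, 125 in each of the control and wild-type rescue and 109 with the mutant. On knockdown it differed by 0.07 on the log2 scale (SE 0.04, edgeR adjusted p = 0.109), in the direction of CISH and without overlap of the libraries. In the mutant rescue against the control MAPKAPK3 was lower (log2 fold change -0.19, SE 0.04), while CISH was higher (0.70, SE 0.15). The part of MAPKAPK3 in the level of CISH was not tested.

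CISH is shown by its promoter, because 4 copies of the STAT motif stand in it and the gene was higher in all 3 lines with the METTL3 hairpin. The motif TTCNNNGAA, which reads the same on both strands, was searched in windows of 250 bases before to 50 after each gene start (RefSeq, GRCh38.p14). At least 1 copy was in 7.66% of 34943 windows, and 4 or more in 7 of them (0.0200%). Windows were matched for 5 members (CISH, SOCS1, SOCS3, SOCS4 and SOCS6), and those of SOCS2, SOCS5 and SOCS7 were not analysed here. CISH held 4 copies and those of the other matched members 0. The 250 bases before the CISH start, chr3:50611775-50612024 on the minus strand, with the motifs in capitals, read as follows.
CISH promoter: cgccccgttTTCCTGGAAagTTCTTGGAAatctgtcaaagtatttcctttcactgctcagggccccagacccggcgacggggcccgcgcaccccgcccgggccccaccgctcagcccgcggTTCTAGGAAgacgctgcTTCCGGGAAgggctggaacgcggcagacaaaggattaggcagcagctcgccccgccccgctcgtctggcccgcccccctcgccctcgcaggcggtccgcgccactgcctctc
The motifs form 2 pairs. In the distal pair the copies begin 241 and 230 bases before the start and are 2 bases apart, and in the proximal pair they begin 129 and 112 bases before it and are 8 bases apart. A match is a description of the letters and not a bound site.

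SOCS1, an inhibitor of JAK kinase activity, had 12 and 14 counts in the control libraries (0.758 and 0.882 CPM) and 36 and 20 in the knockdown (2.03 and 1.27 CPM). Both knockdown libraries were above both control libraries but lay far from each other. SOCS1 rose by 1.02 (log2 scale, SE 0.35, edgeR adjusted p = 0.0105). The call rested on few counts: without knockdown replicate 1 the log2 fold change was 0.63 (adjusted p = 0.292), and it also ended without control replicate 1 (0.0888) and with DESeq2 (0.0863), over a range of 0.00418 to 0.292. The leukocyte markers PTPRC and CD3E stayed at 0 or 1 count in every library. The leukocyte list, nearly all CD68, was lower in the knockdown than in the control, and its part in the level of SOCS1 was not tested. The fibroblast list summed to 80.2 to 81.8 CPM in the control, 84.2 to 92.9 in the knockdown, 97.4 to 100.5 with wild-type METTL3 and 100.4 to 106.5 with the mutant, mostly COL1A1, with DCN at 0 to 4 counts. Its part in the levels of SOCS1 and CISH was not tested.

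SOCS3 had 6 and 4 counts in the control libraries, 11 and 6 in the knockdown, 7 and 7 in the wild-type rescue, and 7 and 14 with the mutant. Its log2 fold change on knockdown was 0.67 with a 95% interval of -0.50 to 1.85. A change of SOCS3 of the size seen for SOCS1 was not detectable at this depth.

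**Figure D2:**
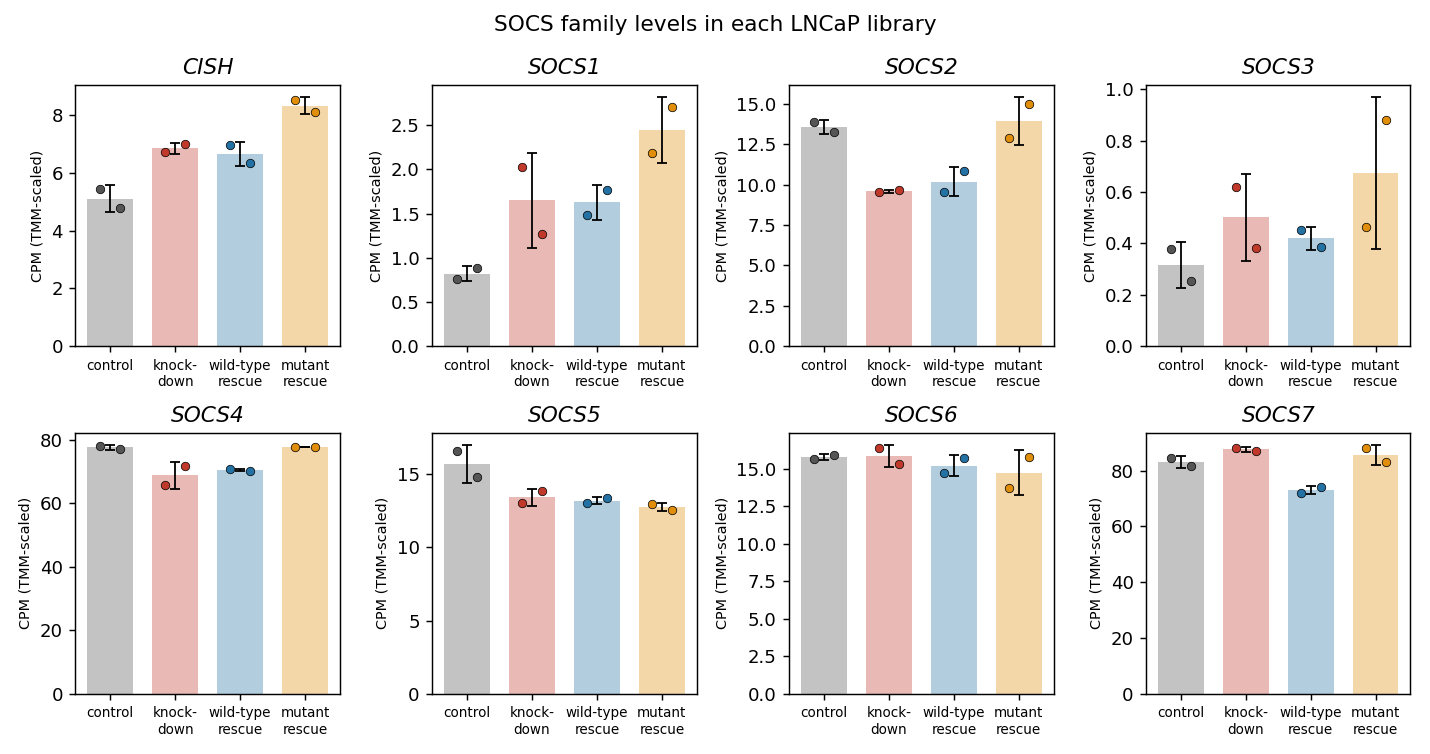
CPM of each member in the 2 libraries of each line (points), with the mean (bars, from 0) and SD (error bars, n = 2). SOCS2 is lowest in the knockdown and wild-type rescue, CISH and SOCS1 are highest in the mutant rescue, and SOCS7 is lowest in the wild-type rescue, at 72.1 and 74.2 CPM.

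Of the long members, SOCS4, a brake on the epidermal growth factor receptor, was at 78.1 and 77.1 CPM in the control libraries and at 65.8 and 71.7 in the knockdown. It fell by 0.18 on the log2 scale (SE 0.05, edgeR adjusted p = 8.58e-04), a small change between lines that did not overlap. Without knockdown replicate 1 it fell by 0.11 and was not called (adjusted p = 0.107, range over the alternatives 7.82e-06 to 0.107). SOCS5, a relative of SOCS4 that also restrains the epidermal growth factor receptor, was at 16.6 and 14.8 CPM in the control libraries and at 13.0 and 13.9 in the knockdown. It fell by 0.23 (SE 0.10, edgeR adjusted p = 0.0495), a call at the threshold that ended in 9 of the 14 alternative fits (range 0.0313 to 0.376). Among these were the fits without control replicate 1 (-0.14 on the log2 scale), without either knockdown library and without either mutant rescue library.

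SOCS6, a brake on the KIT and insulin receptors, differed by 0.01 on the log2 scale (95% interval -0.18 to 0.19). SOCS7, an adaptor that binds insulin receptor substrate proteins, was at 84.7 and 81.4 CPM in the control libraries and at 88.2 and 87.0 in the knockdown. Its log2 fold change was 0.08 (95% interval -0.01 to 0.16, edgeR adjusted p = 0.134).

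The wild-type rescue against the knockdown asked what returned when active METTL3 was put back. Of the 5 members called on knockdown, 0 were called here by edgeR (0 at an unadjusted p under 0.05 and 0 by DESeq2), and 1 member fell, SOCS7, where 10.8% of all genes tested rose, 13.2% fell and 24.0% were called. SOCS7 went from 88.2 and 87.0 CPM to 72.1 and 74.2, below every library of the other lines. It fell by 0.26 on the log2 scale (SE 0.04, edgeR adjusted p = 5.13e-07). Across 15289 genes the Spearman rho of log2 fold change with gene length was -0.346 here, with long genes lower; these are genes, not independent replicates. SOCS7 is 7978 bases long, and with the length trend removed it fell by 0.15 (adjusted p = 0.00635).

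SOCS2 was at 9.54 and 10.8 CPM in the wild-type rescue, 1 library between those of the knockdown and 1 above them. Its log2 fold change was 0.09 (95% interval -0.14 to 0.32). CISH, at 6.96 and 6.35 CPM, gave -0.04 (95% interval -0.32 to 0.23), and SOCS1, at 1.48 and 1.77 CPM, gave -0.03 (95% interval -0.61 to 0.55). SOCS4 gave 0.04 (95% interval -0.06 to 0.13, edgeR adjusted p = 0.656), but 0.13 with the length trend removed, where it was called (adjusted p = 0.0441, the lowest of its alternatives). SOCS5 was at 13.0 and 13.4 CPM and SOCS6 at 14.7 and 15.7, with log2 fold changes of -0.02 and -0.06.

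The wild-type rescue differed from the control in 6 members, where 49.3% of all genes tested were called, 23.8% higher and 25.5% lower: CISH and SOCS1 were higher and SOCS2, SOCS4, SOCS5 and SOCS7 lower. SOCS2 stood at 74.9% of the control level (edgeR log2 fold change -0.41, SE 0.11, adjusted p = 8.60e-04) and SOCS7 at 88.1% (-0.18, SE 0.04, edgeR adjusted p = 2.80e-04). These 2 calls held in all 14 alternative fits. The other calls did not: SOCS1 (0.99, SE 0.35, adjusted p up to 0.111) ended without control replicate 1 or wild-type rescue replicate 2, CISH (0.38, SE 0.15, up to 0.219) without control replicate 2 or wild-type rescue replicate 1, and SOCS4 (-0.14, SE 0.05, up to 0.0840) without control replicate 1. SOCS5 (-0.25, SE 0.10) ended without control replicate 1, where it fell by 0.17 (adjusted p = 0.296), and without either wild-type rescue library. All 4 ended with DESeq2, and those of SOCS4 and SOCS5 also with the length trend removed.

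**Figure D3:**
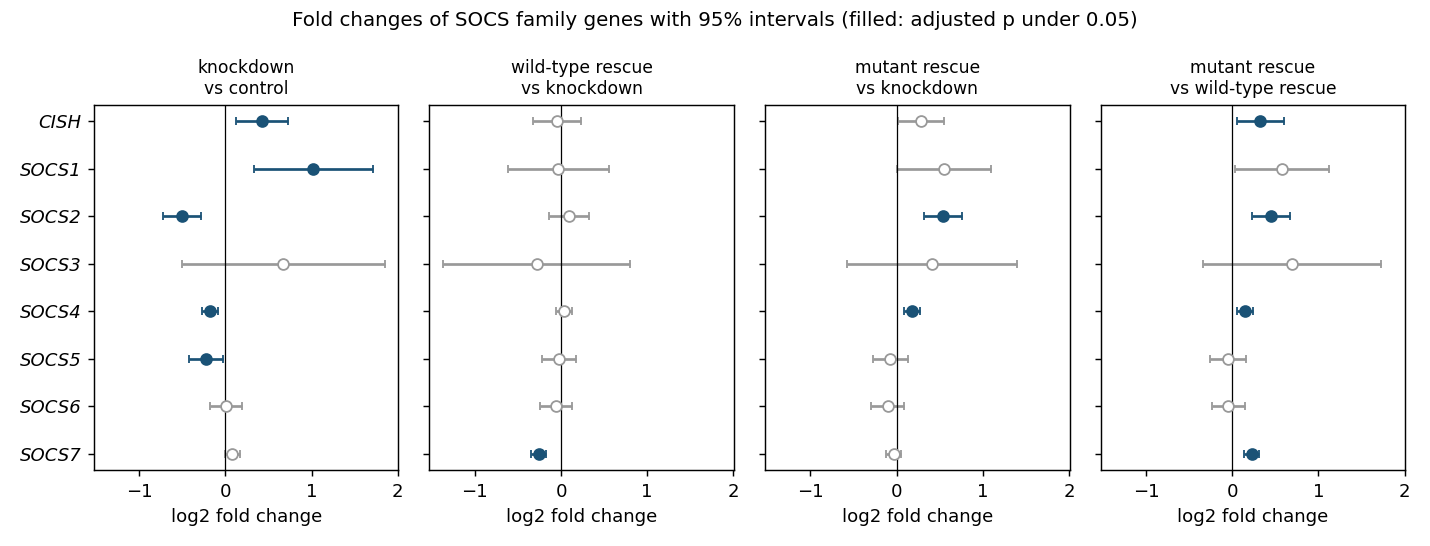
log2 fold changes of the 8 members in 4 comparisons with 95% intervals from edgeR, filled where the adjusted p is under 0.05. SOCS2 is at -0.50 on knockdown and at 0.54 in the mutant rescue against the knockdown, and the interval of SOCS3 crosses 0 in each panel.

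The mutant rescue against the knockdown asked what METTL3 without catalytic activity changed. Here 2 members rose, SOCS2 and SOCS4, and 0 fell, where 25.9% of all genes tested rose, 25.8% fell and 51.7% were called. With DESeq2 2 members rose and 0 fell, where 19.4% of the genes it tested rose and 20.3% fell. At an unadjusted p under 0.05 in edgeR 4 members rose and 0 fell, and the share of all genes under that rule is not given here. SOCS2 was at 12.9 and 14.98 CPM in the mutant rescue, above both knockdown libraries and on either side of the control libraries. It rose by 0.54 (log2 scale, SE 0.11, edgeR adjusted p = 1.18e-05), held in all 14 alternative fits, and stood at 103% of the control (log2 fold change 0.04, 95% interval -0.17 to 0.24). SOCS4, at 77.8 and 77.6 CPM, rose by 0.18 (SE 0.05, edgeR adjusted p = 6.76e-04) to 100.2% of the control. SOCS4 was not called without knockdown replicate 1 (0.12, adjusted p = 0.0923, the highest of its alternatives) and gave 0.28 with the length trend removed.

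CISH and SOCS1 were further from the control in the mutant rescue than in the knockdown. CISH was at 8.54 and 8.12 CPM and SOCS1 at 2.18 and 2.71 CPM (33 and 43 counts), above every library of the other 3 lines. Against the knockdown neither passed the test, with log2 fold changes of 0.28 (SE 0.14, edgeR adjusted p = 0.0738) for CISH and 0.55 (SE 0.28, edgeR adjusted p = 0.0844) for SOCS1. Without knockdown replicate 1 SOCS1 gave 0.94 and was called (adjusted p = 0.0332). Against the control CISH was higher by 0.70 (SE 0.15, edgeR adjusted p = 1.42e-05) and SOCS1 by 1.57 (SE 0.33, edgeR adjusted p = 1.17e-05), 163% and 298% of the control level. Both calls held in all 14 alternative fits. In that comparison 2 members were higher and 1 was lower, where 29.1% of all genes tested were higher, 29.7% lower and 58.8% called.

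The member that was lower than the control in the mutant rescue was SOCS5, at 13.0 and 12.6 CPM. It differed by -0.30 on the log2 scale (SE 0.10, edgeR adjusted p = 0.00839), and this call ended with DESeq2 (0.0889), without control replicate 1 (0.150) and without mutant rescue replicate 2 (0.0630). The 6 libraries with the METTL3 hairpin lay between 12.6 and 13.9 CPM of SOCS5, below both control libraries. SOCS6 was at 13.7 and 15.8 CPM, overlapped every other line and was called in none of the 6 comparisons, with log2 fold changes of -0.10 to 0.01.

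The comparison of both rescues asked what differs with the catalytic activity of the introduced METTL3, and is also the test of the difference between the effects of both rescues on the knockdown. Here 4 members were higher in the mutant rescue (SOCS2, CISH, SOCS4 and SOCS7) and 0 lower. Over all genes tested 21.0% were higher, 20.3% lower and 41.3% called. With DESeq2 2 members were higher and 0 lower, where 16.2% of the genes it tested were higher and 14.8% lower. At an unadjusted p under 0.05 in edgeR 5 members were higher and 0 lower, and the share of all genes under that rule is not given here. The median log2 fold change was 0.28 over the members and 3.21e-05 over all genes tested. SOCS2 was higher by 0.45 (SE 0.11, edgeR adjusted p = 3.44e-04), 0.33 without mutant rescue replicate 2 (adjusted p = 0.0504, the highest of its alternatives). SOCS7 was at 88.1 and 83.0 CPM in the mutant rescue, higher by 0.22 (SE 0.04, edgeR adjusted p = 1.05e-05), and was called in all 14 alternative fits.

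SOCS4 was higher by 0.14 (SE 0.05, adjusted p = 0.00907 by edgeR). This call ended with DESeq2 (0.0727) and without wild-type rescue replicate 2 (0.0509). CISH was higher by 0.33 (SE 0.14, edgeR adjusted p = 0.0459), and this ended in 7 of the 14 alternative fits, each library of either rescue left out among them (range 0.0393 to 0.249). SOCS1 differed by 0.58 between lines that did not overlap and did not pass the test (SE 0.28, edgeR adjusted p = 0.0818). SOCS3, SOCS5 and SOCS6 gave 0.69 (SE 0.52), -0.05 (SE 0.10) and -0.04 (SE 0.10).

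The number of members called moved with the call rule, as did the share of all genes. With the Wald test of DESeq2, 2 members were called on knockdown (33.1% of all genes tested), 1 in the wild-type (18.4%) and 2 in the mutant rescue (39.7%) against the knockdown, and 2 between the rescues (31.0%). Against the control it called 2 in each rescue (34.6% of all genes for the wild-type and 44.0% for the mutant). None of those it called on knockdown was higher, where 16.7% of the genes it tested were. The calls of rises of CISH and SOCS1 there thus rest on edgeR. With a minimum absolute log2 fold change of 0.5 in edgeR, SOCS1 and SOCS2 were called on knockdown (11.4% of all genes tested), 0 members in the wild-type rescue against the knockdown (1.26%), SOCS2 in the mutant rescue against the knockdown (12.2%) and 0 between the rescues (6.07%). Against the control SOCS1 passed it in the wild-type rescue (11.2%), and SOCS1 and CISH in the mutant rescue (19.7%). With the length trend removed 2 members, SOCS4 and SOCS7, were called in the wild-type rescue against the knockdown, beside 17.2% of all genes tested.

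Genes with a pattern like that of a member were sought by the Pearson correlation of log2 CPM over the 8 libraries, among genes of at least 5 CPM whose line means spanned at least 0.5 on the log2 scale. It is a description over libraries that share their lines, with no p. Nearest to SOCS2 were SPTBN4 (r = 0.984), AOC3 (r = 0.971) and MMEL1 (r = 0.957). SPTBN4, a spectrin, stood at 13.0, 7.69, 8.38 and 13.0 CPM in the control, knockdown, wild-type rescue and mutant rescue. Nearest to CISH were SC5D, an enzyme of cholesterol synthesis (r = 0.987), the lipid phosphatase MTMR3 (r = 0.985) and FAM102B (r = 0.984). MTMR3 stood at 68.6, 93.0, 91.6 and 115.8 CPM in the same order. Nearest to SOCS1 were LYRM9 (r = 0.972), LRIG2 (r = 0.971) and TMCC2 (r = 0.970). Nearest to SOCS3, on its few counts, were FRMD4A (r = 0.912), RBM43 (r = 0.909) and ZNF436 (r = 0.872). SOCS4 to SOCS7 spanned less than 0.5 and were not compared in this way.

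The rest of the pathway was followed in 9 lists. Called shares of a list are to be read against all genes tested, of which 22.9% rose and 25.1% fell on knockdown, and 21.0% were higher and 20.3% lower in the mutant than in the wild-type rescue. Of 23 tested cytokine receptors, which SOCS proteins restrain, 4 rose and 7 fell on knockdown, near the 48.0% of all genes called, with a median log2 fold change of 0.01. IL6ST (gp130), the receptor chain that SOCS3 binds, was higher by 0.11 (SE 0.04), and GHR, the growth hormone receptor restrained by SOCS2, was lower by 0.22 (log2 fold change -0.22, SE 0.08). GHR was also lower in the wild-type rescue than in the knockdown (-0.29, SE 0.08) and lower in the mutant rescue than in the wild-type rescue (-0.23, SE 0.09), while SOCS2 was higher in the last comparison. Between the rescues 5 receptors were higher and 3 lower, among them LIFR (0.45, SE 0.04), IL6R (0.38, SE 0.04) and IFNAR1 (-0.38, SE 0.05). Of 9 tested cytokine ligands 1 fell on knockdown, THPO (-1.43, SE 0.40), named after its value was seen. THPO was at a low level, with means of 1.55 CPM in the control and 0.568 in the knockdown.

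Of 10 tested JAKs and STATs 4 rose and 2 fell on knockdown, where 48.0% of all genes tested were called. Among them JAK1 rose by 0.37 (SE 0.10), JAK2 by 0.29 (SE 0.08) and STAT5B by 0.11 (SE 0.05), while JAK3 (-0.62, SE 0.23) and STAT5A (-0.32, SE 0.11) fell. STAT3, at a log2 fold change of -0.03 (SE 0.03), was not called. Between the rescues, where 41.3% of all genes were called, 4 were higher in the mutant, JAK2 (0.23, SE 0.07), TYK2 (0.14, SE 0.04), STAT3 (0.14, SE 0.03) and STAT2 (0.13, SE 0.04), and 1 was lower.

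Genes listed as induced by STATs, SOCS members left out, were called in 7 of 20 on knockdown (48.0% over all genes tested). There were 4 rises, led by GBP2 (1.23, SE 0.09) and CEBPD (0.63, SE 0.05), and 3 falls, led by LRG1 (-0.75, SE 0.06). Between the rescues 10 of 20 were higher in the mutant (21.0% over all genes tested) and 1, OSMR, was lower (-0.21, SE 0.09; 20.3% over all genes), with a median log2 fold change of 0.26 against 3.21e-05 over all genes tested. The interferon regulatory factor IRF1 was higher by 0.65 (SE 0.06), and the transcription factor ONECUT2, also in this list, by 0.48 (SE 0.05). In the same comparison SOCS2 stood at 0.45 and CISH at 0.33. STAT activity was not measured, and a shared cause was not tested. OSMR and IL4R are in the receptor list as well.

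**Figure D4:**
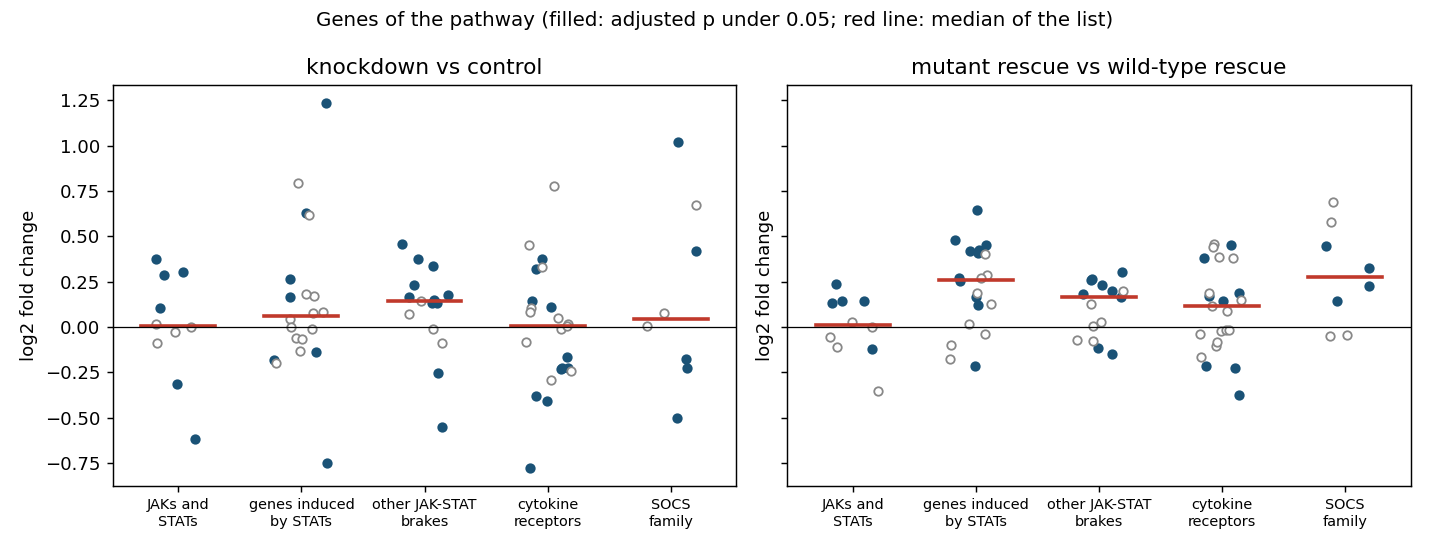
log2 fold changes of the tested genes of 4 pathway lists and of the SOCS family on knockdown (left) and between the rescues (right), 1 point per gene, filled where the adjusted p is under 0.05, with the list's median as a red line. Genes listed as induced by STATs have a median of 0.06 on the left and 0.26 on the right, and the SOCS family of 0.04 and 0.28.

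The proteins that SOCS boxes recruit were all expressed. CUL5 rose by 0.13 (SE 0.04) on knockdown and fell by 0.24 (log2 fold change -0.24, SE 0.04) in the wild-type rescue against the knockdown, and RNF7 rose by 0.17 (SE 0.05) on knockdown. In that list of 8, 2 members rose and 3 fell on knockdown, and 1 was higher and 2 lower between the rescues, beside 48.0% and 41.3% of all genes tested called in these comparisons. Other SOCS box proteins rose in 4 and fell in 5 of 20 on knockdown, a share near that of all genes, with SPSB1 at 0.53 (SE 0.14) and SPSB2 at -0.31 (SE 0.11), and 5 were higher and 2 lower between the rescues.

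Of 15 tested brakes and related regulators of JAK-STAT signalling outside the family, 9 rose and 2 fell on knockdown (median log2 fold change 0.14). Over all genes tested 22.9% rose and 25.1% fell. The ubiquitin ligases CBLB and CBL rose by 0.46 (SE 0.07) and 0.38 (SE 0.05). TRIM8, a ligase in this list that promotes SOCS1 degradation and is thus not itself a brake, fell (log2 fold change -0.55, SE 0.05). Between the rescues 7 of these 15 were higher and 2 lower (21.0% and 20.3% over all genes tested), with the adaptor SH2B3 at 0.30 (SE 0.06) and PIAS1 at 0.26 (SE 0.05). Brakes on growth factor receptors rose in 7 of 15 and fell in 4 on knockdown (22.9% and 25.1% over all genes tested), with the adaptor GRB10 at 1.15 (SE 0.03), SPRY4 at 0.92 (SE 0.15), DUSP5 at -0.72 (SE 0.11) and DUSP4 at -0.61 (SE 0.03). Between the rescues 4 were higher and 4 lower. Of 4 tested insulin and IGF receptors and substrates, IRS2 rose by 0.24 (SE 0.08) and IRS1 fell (-0.48, SE 0.13) on knockdown, and between the rescues 1 was lower, IRS1 (-0.38, SE 0.16).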

How the data were processed

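Counts per gene of 8 libraries were used as the authors deposited them, with no normalization. Per the submitters' processing notes CASAVA, STAR 2.5.2b, featureCounts, DESeq2 and hg19 were used; the annotation and strand setting are not given in the sources used here. A column of other kind in the deposited table, gene length in bases, served for CPM per kilobase and the length trend. Total RNA was extracted with TRIzol and sequenced after a stranded messenger RNA kit, per the labels.

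In edgeR 4.0.16 (R 4.3.3) 15289 of 27140 genes passed filterByExpr, with a minimum count of 10 and a minimum total of 15. TMM factors scaled the libraries, and the quasi-likelihood fit, robust and with a mean for each group, took in all 8 of them. The 6 pairwise comparisons were tested two-sided, adjusted by Benjamini-Hochberg over all genes tested and called at an adjusted p under 0.05. Comparisons that share a line are not independent. With 2 libraries against 2, an exact permutation test cannot go below 0.333. Alternatives were DESeq2 size factors, no filter, the Wald test of DESeq2 1.42.0, only the groups compared, the replicate number as a block, a length offset (lowess, span 0.3), a minimum log2 fold change of 0.5, and each library left out. Members, lists, tests and alternatives were chosen with earlier results of these data known. In each pathway list, named genes include those among the 2 largest called rises and falls on knockdown and between the rescues, at 1 CPM or more and without overlap of the lines, known partners of SOCS proteins, and JAKs and STATs. The model was run on simulated data in which few genes changed, as a check of the code. That run does not measure error rates in these libraries, where 48.0% of all genes tested were called on knockdown. Replicates were not copies of each other (chi-square per degree of freedom 1.21 to 1.35 within lines). The lists served as descriptions, with no set test. Some list members are not reported here.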

Additional observations from a re-analysis of the deposited data

How the results depend on the processing

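Of 48 tests of a member in a comparison 21 were calls. Over all genes tested, 24.0% to 58.8% were called, depending on the comparison, and comparisons that share a line are not independent. Of the 21, 8 held in all 14 alternative fits. They were SOCS2 and SOCS7 in 3 comparisons each, and CISH and SOCS1 in the mutant rescue against the control. The share of calls over all genes that held in all 14 is not given here. The minimum absolute log2 fold change of 0.5 is not among these 14. Under it the calls of SOCS7, and that of SOCS2 in the wild-type rescue against the control, ended. No call changed direction in the 14 fits, while 20 values not called in either fit changed sign. With the Wald test of DESeq2, which ended 10 calls, 2 members were called on knockdown, 2 between the rescues and 2 in the wild-type rescue against the control. With a minimum absolute log2 fold change of 0.5 the members called were 2 on knockdown, 0 and 1 in the wild-type and mutant rescues against the knockdown, 0 between the rescues and 1 in the wild-type rescue against the control. With the length trend removed 2 were called in the wild-type rescue against the knockdown. With each library left out in turn, 2 to 5 members were called on knockdown, 1 in the wild-type rescue against the knockdown, 2 in the mutant rescue against the knockdown, 2 to 4 between the rescues, 3 to 6 in the wild-type rescue and 2 to 3 in the mutant rescue against the control. The share of all genes called then ran, in the same order, from 38.4% to 47.5%, 15.8% to 23.5%, 42.3% to 50.9%, 31.6% to 40.1%, 39.6% to 48.0% and 49.5% to 58.0%. The cause was not tested; a library left out leaves 1 in its line, assumed to vary like the others. SOCS3 had 4 to 14 counts per library and SOCS1 12 to 43. Calls over the 9 lists ran from 37 in the wild-type rescue against the knockdown to 75 in the mutant rescue against the control, and from 36 to 75 with DESeq2 size factors. With the length trend removed these numbers were 25 and 72, and the share of all genes called in the former went from 24.0% to 17.2%. Replicate numbers did not pair the libraries (correlations across genes of -0.0379 to 0.0397 between lines), and with the replicate block 5, 1, 2, 4, 6 and 3 members were called in the 6 comparisons, as without it.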
